A study of Mus musculus with 10 samples.

Results

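The ferritin and iron handling genes described here are 9 rows of a platelet count table of 23420 genes, chosen by symbol for their role in iron storage, transport and sensing. They are the ferritin chains Fth1 and Ftl1, the transferrin receptor Tfrc, the exporter Slc40a1, the importer Slc11a2, the iron regulatory proteins Aco1 and Ireb2, the ferritin receptor Ncoa4 and the iron chaperone Pcbp1. The RNA came from platelets of adult mouse peripheral blood, sorted by flow cytometry into Tomato+ platelets (5 libraries) and Tomato- platelets (5 libraries). Tomato is a red fluorescent protein; the sources used here do not name its promoter, the mouse strain or an age beyond adult. Polyadenylated RNA was amplified with a Smart-seq+ protocol, and no label ties a library to an animal, so the p-values reflect only how far these libraries scatter, part of which may be technical.

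Platelets have no nucleus, so their RNA is carried over from the megakaryocyte, the bone marrow cell that releases them. Ferritin is a hollow shell of heavy and light chains that stores iron. The heavy chain oxidises ferrous iron and the light chain helps the mineral core to form. Cells take up transferrin-bound iron through the transferrin receptor, move it out of the endosome through Slc11a2 (DMT1), hand it to ferritin through Pcbp1, release it again when Ncoa4 carries ferritin to the lysosome, and export it through Slc40a1 (ferroportin). The proteins encoded by Aco1 (IRP1) and Ireb2 (IRP2) bind RNA hairpins called iron-responsive elements when iron is scarce. A hairpin before the coding sequence then blocks translation, and hairpins behind it protect the transcript from decay.

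These hairpins are the sequence feature that ties ferritin RNA to the transporters, so they are shown here for the members in which they were found. The pattern searched was a C, 5 bases, the loop CAGTGN and 5 further bases, with both runs of 5 bases pairing (G with T allowed). It was searched on the strand of the transcript alone, because the element is an RNA hairpin. Elements of another form, such as with an unpaired base in these runs, would be missed. A member or site without a match may therefore still hold an element. The pattern was looked for in the protein-coding transcripts of GENCODE M21 (GRCm38, the assembly of mm10). The lines below are from the first-numbered transcript of each member, while the numbers of genes with the pattern take a match in any transcript. Each line gives 29 bases from 5′ to 3′ in DNA letters, with the bulged C and the loop of 6 bases in capitals.
Fth1, before the coding sequence (chr19:9982732-9982760, plus strand): ttcctgCttcaaCAGTGCttgaacggaac
Ftl1, before the coding sequence (chr7:45459779-45459807, minus strand): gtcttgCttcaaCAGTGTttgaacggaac
Slc40a1, before the coding sequence (chr1:45925465-45925493, minus strand): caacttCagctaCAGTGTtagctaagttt
Tfrc element 1, behind the coding sequence (chr16:32631219-32631247, plus strand): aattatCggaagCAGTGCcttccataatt
Tfrc element 2, behind the coding sequence (chr16:32631598-32631626, plus strand): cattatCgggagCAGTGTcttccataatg
Tfrc element 3, behind the coding sequence (chr16:32631663-32631691, plus strand): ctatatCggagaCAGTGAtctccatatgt
Tfrc element 4, behind the coding sequence (chr16:32631710-32631738, plus strand): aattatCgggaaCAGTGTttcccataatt

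The elements of Fth1 and Ftl1 were identical at 26 of 29 bases. Those of Fth1 and Slc40a1 were identical at 13 of 29, and those of Fth1 and Tfrc at 9 to 11 of 29. The search fixed the bulged C and the CAGTG of the loop, so every pair of elements shares these bases. The pattern was rare: 30 of 20074 genes with a 5′ untranslated region of at least this length held it there (0.149%), and 128 of 20851 held it in the 3′ untranslated region (0.614%). Among the 26 listed genes with the pattern in the 5′ region, 3 had a count in every platelet library, namely Fth1, Ftl1 and the cyclophilin gene Ppia, which is named after its values were seen. The first 2 of these were chosen as members, and 1.13% of all genes had a count in every library. Among the 121 listed genes with the pattern in the 3′ region, 1 had a count in every library. A match to these letters is a description and no test of binding.

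The members fell into 3 classes by detection. Fth1 and Ftl1 were among the most abundant transcripts of every library, Ncoa4 and Pcbp1 had counts in some libraries, and Tfrc, Slc40a1, Slc11a2, Aco1 and Ireb2 had 0 counts in all 10 libraries. For comparison, 264 of the 23420 genes had a count in every library, 4428 genes (18.9%) had one in some libraries and 18728 genes (80.0%) had none. Library totals were 6505769 to 16179973 counts in Tomato+ and 5411417 to 10596707 counts in Tomato-. The number of genes with at least 1 count was 1118 to 2450 in Tomato+ and 807 to 2430 in Tomato- libraries, and all 3 libraries under 1000 were Tomato- (replicates 1, 2 and 5).

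**Figure D1:**
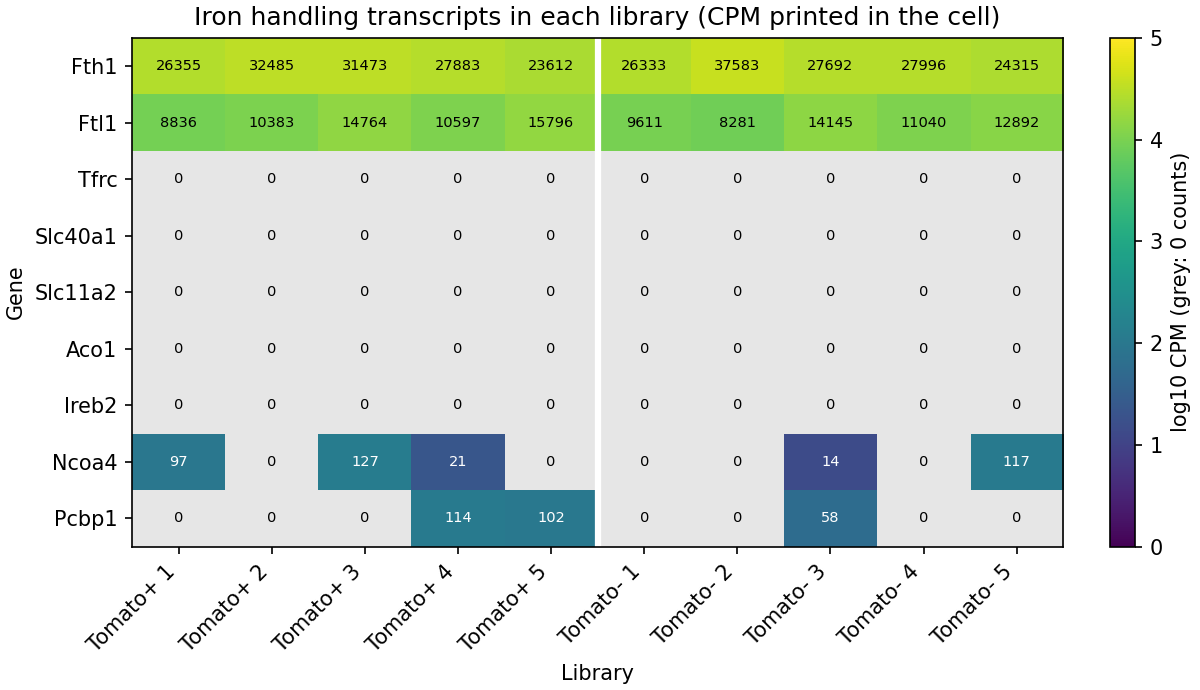
Level of the 9 iron handling genes (rows) in each library (columns, Tomato+ left of the white line), in CPM (counts per 1000000 counts of a library), with colour on a log10 scale and grey for 0 counts. The rows of Fth1 and Ftl1 are filled in all 10 libraries, Ncoa4 in 5, Pcbp1 in 3 and the remaining 5 genes in none.

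Fth1, the ferritin heavy chain (ENSMUSG00000024661.7, chromosome 19, 9980598 to 9985098, plus strand), had 26355, 32485, 31473, 27883 and 23612 CPM in Tomato+ replicates 1 to 5, against 26333, 37583, 27692, 27996 and 24315 CPM in Tomato- replicates 1 to 5. CPM are counts per 1000000 counts of a library. The groups overlapped throughout, and the highest value was that of Tomato- replicate 2. Fth1 averaged 28362 ± 3657 CPM in Tomato+ and 28784 ± 5129 CPM in Tomato- (SD, n = 5 each). It ranked between 4 and 6 among all genes in Tomato+ libraries and between 3 and 6 in Tomato- libraries.

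Fth1 was not called different between the fractions. Its log2 fold change, Tomato+ over Tomato-, was 0.22 (SE 0.14, 95% interval -0.09 to 0.52) by edgeR's quasi-likelihood test (adjusted p = 0.9996, over 1016 genes). On a linear scale this interval runs from 0.939 to 1.44-fold, which leaves out both a doubling and a halving. The sign was not stable: Fth1 had -0.022 with total-count scaling and -0.012 in limma voom. The median log2 fold change of all tested genes was 0.21 with TMM factors in edgeR, -0.03 with total-count scaling and 0.95 in limma voom. Relative to the median gene, Fth1 was 0.01 higher in Tomato+ in the edgeR fit with TMM factors. Of all 1016 genes tested, 0 were called (0%), and 9 had an unadjusted p under 0.05. When the replicate number was added as a block in limma voom, 2 of the 1016 genes (0.197%) were called. This setting was added after seeing the data. In it limma voom called Fth1 (log2 fold change 0.28, adjusted p = 0.0330), below the median of 0.37 for all tested genes. With the same block, edgeR called 0 genes, and there Fth1 had 0.23 and the median gene 0.56.

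Ftl1, the ferritin light chain (ENSMUSG00000050708.16, chromosome 7, 45457944 to 45459884, minus strand), had 8836, 10383, 14764, 10597 and 15796 CPM in Tomato+ replicates 1 to 5, against 9611, 8281, 14145, 11040 and 12892 CPM in Tomato- replicates 1 to 5. Replicates 3 and 5 were the highest in both fractions, and the groups overlapped. The means were 12075 ± 3026 CPM in Tomato+ and 11194 ± 2377 CPM in Tomato- (SD, n = 5 each). Ftl1 ranked between 9 and 15 in Tomato+ and between 8 and 17 in Tomato- libraries. Its log2 fold change was 0.32 (SE 0.25, 95% interval -0.21 to 0.86) and did not pass in edgeR (adjusted p = 0.9996). Without the 3 libraries with under 1000 detected genes, a choice made after seeing the data, it was 0.02 (SE 0.36), and that of Fth1 was 0.08.

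**Figure D2:**
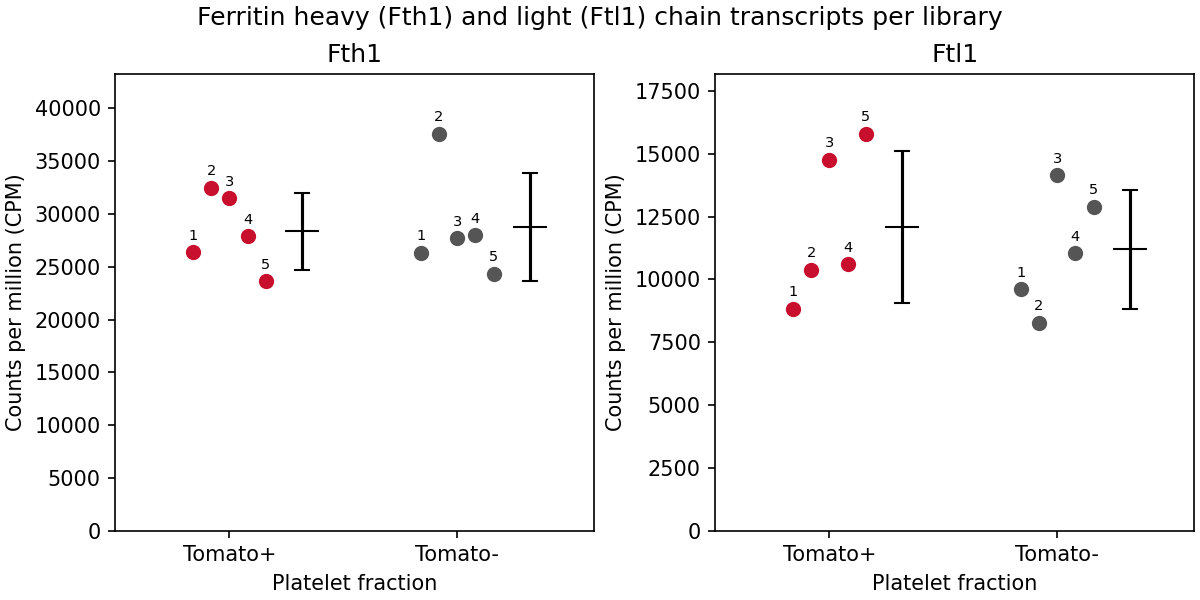
CPM of Fth1 (left) and Ftl1 (right) in each library, with Tomato+ in red and Tomato- in grey; numbers are replicate numbers and bars the mean ± SD of 5 libraries. The groups overlap for both genes, and Tomato- replicate 2 has the highest Fth1 (37583 CPM) and the lowest Ftl1 (8281 CPM).

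Both ferritin chains together made up 4.04 ± 0.424% of the Tomato+ counts and 3.998 ± 0.397% of the Tomato- counts (SD, n = 5 each). That sum ran from 3.52 to 4.62% in Tomato+ and from 3.59 to 4.59% in Tomato- libraries. The balance between the chains varied more than their sum. Tomato+ replicates 1 to 5 had 2.98, 3.13, 2.13, 2.63 and 1.49 Fth1 counts per Ftl1 count, against 2.74, 4.54, 1.96, 2.54 and 1.89 in Tomato- replicates 1 to 5. The mean was 2.47 ± 0.669 in Tomato+ and 2.73 ± 1.07 in Tomato- (SD, n = 5 each). On the log2 scale the means differed by -0.11, Tomato+ minus Tomato-, less than the SD within Tomato+ (0.44) or Tomato- (0.51). From the highest ratio down, the replicates ran 2, 1, 4, 3 and 5 in both fractions. Part of these SDs may therefore follow the replicate number, which was not tested. The sign turned without Tomato- replicate 2 (0.09), without Tomato+ replicate 5 (0.05) and when the 3 libraries under 1000 detected genes were left out (0.10), the last chosen after seeing the data.

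**Figure D3:**
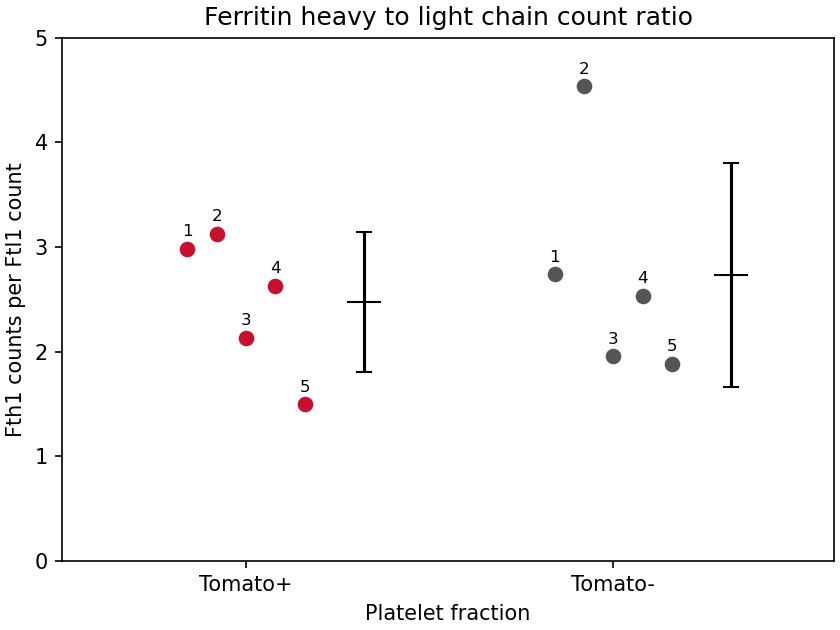
Fth1 counts per Ftl1 count in each library, Tomato+ in red and Tomato- in grey, with replicate numbers and the mean ± SD of 5 libraries. Tomato+ libraries lie between 1.49 and 3.13 and Tomato- libraries between 1.89 and 4.54, with overlap.

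Which chain is more abundant per length depended on the length used. With the union of all annotated exons (3469 bases for Fth1 and 1340 for Ftl1), Fth1 had 8176 ± 1054 CPM per kb in Tomato+ and 8297 ± 1478 in Tomato-, and Ftl1 had 9011 ± 2258 in Tomato+ and 8354 ± 1774 in Tomato- (SD, n = 5 each). With the first-numbered transcript (929 and 968 bases), an alternative chosen after seeing the data, Fth1 had 30529 ± 3937 CPM per kb in Tomato+ and 30983 ± 5521 in Tomato-. On that length Ftl1 had 12474 ± 3126 CPM per kb in Tomato+ and 11564 ± 2456 in Tomato-. By mean level per kb of union exons, Ftl1 ranked 10 and Fth1 ranked 11 among 21785 genes with a length, while by the first-numbered transcript Fth1 ranked 3 and Ftl1 ranked 12.

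Fth1 was among the steadier transcripts. Its SD within groups was 0.21 on the log2 CPM scale, the rank 11 smallest of 264 genes with a count in every library, whose median was 0.78. Ftl1 had 0.34 (rank 40). Abundant genes vary less here, and among the 20 most abundant genes (median SD 0.26) Fth1 ranked 8 and Ftl1 ranked 17 from the smallest. As a description of likeness, the mean absolute difference between centred log2 CPM profiles over the 10 libraries was taken against 252 other genes. This difference is small for any pair of steady genes, so a near profile need not rise and fall with the member. The profiles nearest to Fth1 were those of Vwf (von Willebrand factor, difference 0.14), Tmsb4x (thymosin beta 4, 0.14) and Ctla2a (a cathepsin inhibitor, 0.16). Nearest to Ftl1 were Gpx4 (the glutathione peroxidase that protects lipids, 0.18), Lyz2 (lysozyme, 0.19) and Clu (clusterin, 0.19). Ftl1 itself ranked 47 for Fth1 (0.34), and Fth1 ranked 30 for Ftl1, where the median gene had 0.58 and 0.65 to Fth1 and Ftl1.

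Ncoa4, which carries ferritin to the lysosome for breakdown (ENSMUSG00000056234.15, chromosome 14, 32159865 to 32179855, plus strand), had 96.6, 0, 127, 21.3 and 0 CPM in Tomato+ replicates 1 to 5, against 0, 0, 14.0, 0 and 117 CPM in Tomato- replicates 1 to 5. Libraries with and without counts occurred in both fractions. The mean was 49.0 ± 59.0 CPM in Tomato+ and 26.2 ± 51.0 CPM in Tomato- (SD, n = 5 each). Its log2 fold change of 1.20 (SE 2.77, 95% interval -4.68 to 7.08) did not pass in edgeR (adjusted p = 0.9996), and the interval spans both directions. It was 4.05 without Tomato- replicate 5 and 0.38 without Tomato+ replicate 3. Without the 3 libraries with under 1000 detected genes, a choice made after seeing the data, it was 2.94 (SE 5.10).

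Pcbp1, the chaperone that delivers iron to ferritin (ENSMUSG00000051695.6, chromosome 6, 86524492 to 86526321, minus strand), had counts in Tomato+ replicates 4 and 5 (114 and 102 CPM), against Tomato- replicate 3 alone (57.9 CPM). These values rest on 1838, 1171 and 612 reads, while the other 7 libraries had 0. Pcbp1 did not pass the filter on low counts and so was not tested in that edgeR fit. In edgeR without the filter its log2 fold change was 2.005 (SE 3.85, adjusted p = 0.847), and in edgeR on the 7 libraries over 1000 detected genes it was 0.67 (SE 4.46, unadjusted p = 0.881) and did not pass. Ncoa4 and Pcbp1 had counts together in 2 libraries, Tomato+ replicate 4 and Tomato- replicate 3. In the edgeR fit with the filter, 3 of the 9 members were tested and 0 passed.

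**Figure D4:**
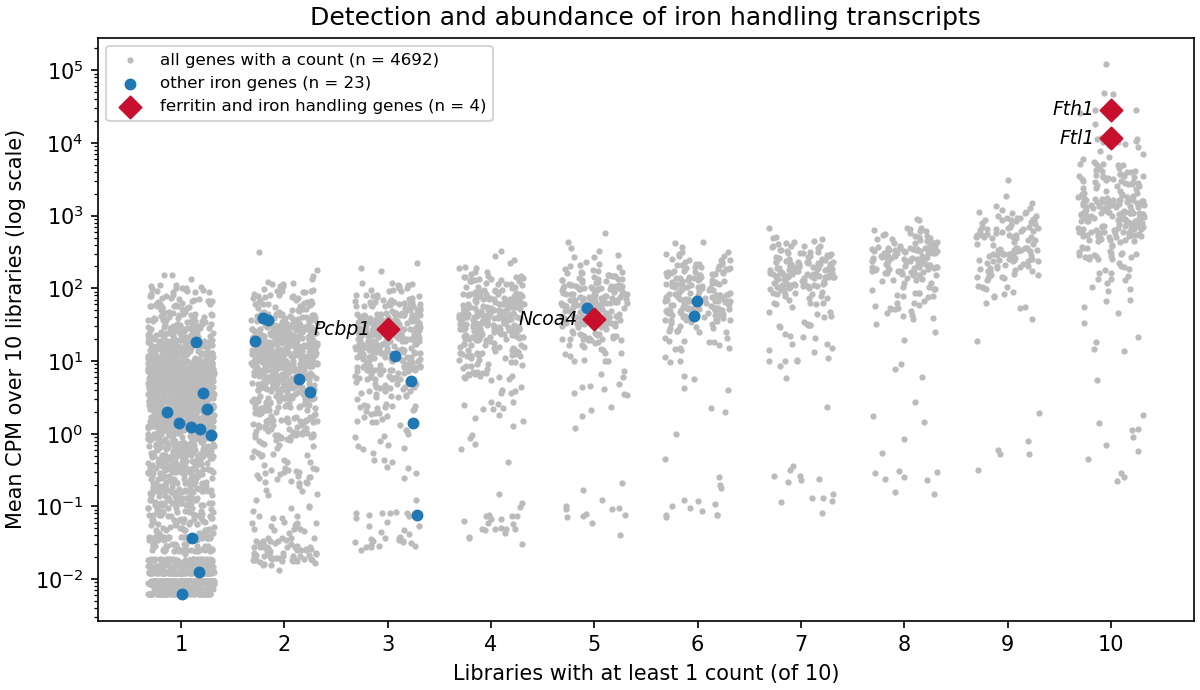
Number of libraries with at least 1 count (horizontal, of 10) against mean CPM over the 10 libraries (vertical, log scale) for 4692 genes with a count, with a small sideways scatter. Fth1 and Ftl1 (red) stand near the top at 10 libraries, Ncoa4 at 5 and Pcbp1 at 3, and 23 other iron genes (blue) lie at 6 libraries or fewer.

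The uptake, export and sensing genes were not detected in any library. Tfrc (ENSMUSG00000022797.16, chromosome 16, 32608920 to 32632794) imports transferrin-bound iron, Slc11a2 (ENSMUSG00000023030.16, chromosome 15, 100387898 to 100425072) moves ferrous iron across membranes, and Slc40a1 (ENSMUSG00000025993.10, chromosome 1, 45908068 to 45926523) exports it. Aco1 (ENSMUSG00000028405.9, chromosome 4, 40143081 to 40198338) and Ireb2 (ENSMUSG00000032293.8, chromosome 9, 54863789 to 54912530) encode the proteins that bind iron-responsive elements. A count of 0 allows up to 0.185 to 0.461 CPM in Tomato+ and 0.283 to 0.554 CPM in Tomato- libraries (3 counts of each total). These limits cover counting error only, since reads without molecular identifiers are not independent molecules. They do not bound the level in the cells: Selp, the P-selectin gene of platelets, had 364 CPM in Tomato+ replicate 5 and 24.5 CPM in Tomato- replicate 4 but 0 counts in the other 8 libraries.

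Most other genes of iron metabolism had no counts, as was true of the table as a whole. Of 64 listed genes with a row, 23 (35.9%) had a count in any library, against 20.03% of all rows. None had counts in more than 6 libraries. Among all 23420 genes, 183, 166, 133 and 264 had counts in exactly 7, 8, 9 and 10 libraries. The listed genes summed to 323 ± 143 CPM in Tomato+ and 308 ± 207 CPM in Tomato- (SD, n = 5 each). The number with counts was 2, 4, 1, 7 and 11 in Tomato+ replicates 1 to 5 and 2, 5, 5, 12 and 1 in Tomato- replicates 1 to 5. It was highest in Tomato+ replicate 5 and Tomato- replicate 4, the 2 libraries with the most detected genes (2450 and 2430). Of the 3 genes tested, 0 passed in either direction.

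Iron-sulphur cluster assembly was the most abundant of these lists, at 184 ± 81.0 CPM in Tomato+ libraries, against 239 ± 144 CPM in Tomato- libraries, with counts for 7 of 17 genes. Single genes carried the sum in some libraries. It was 202 CPM from 1 gene in Tomato+ replicate 3, 360 CPM from 1 gene in Tomato- replicate 1 and 0 in Tomato- replicate 5. All 3 tested genes belong to this list, but the gene counted in Tomato- replicate 1 is none of them. Isca1, an assembly protein of mitochondria, had counts in 4 Tomato+ libraries (94.99 to 201.01 CPM) and 2 Tomato- libraries (54.7 and 119 CPM). Its log2 fold change of 1.51 (SE 2.64) was 3.01 without Tomato- replicate 4 and 5.04 (SE 3.16) in limma voom. Hscb, the co-chaperone of cluster transfer, had counts in 4 Tomato+ libraries (6.86 to 202 CPM) and 2 Tomato- libraries (106 and 28.97 CPM), with a log2 fold change of 1.08 (SE 2.67) that was -0.38 without Tomato+ replicate 3. Iscu, the scaffold on which clusters are built, had counts in 2 Tomato+ libraries (52.8 and 21.7 CPM) and 3 Tomato- libraries (341, 75.0 and 39.7 CPM), with a log2 fold change of -2.17 (SE 2.84) that was -0.89 without Tomato- replicate 2. None of them passed in edgeR (adjusted p = 0.9996 each), and their median of 1.08 stands beside 0.21 for all genes tested. Without the 3 libraries with under 1000 detected genes the log2 fold change was 0.17 (SE 3.55) for Isca1, 0.03 (SE 3.83) for Hscb and -1.90 (SE 4.10) for Iscu.

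Haem synthesis and turnover genes summed to 84.5 ± 139 CPM in Tomato+ and 60.0 ± 127 CPM in Tomato-, with counts for 5 of 17 genes. Fech, which inserts iron into haem, had counts in Tomato+ replicates 2 and 5 (320 and 52.8 CPM) and in no Tomato- library. Alas2, the erythroid enzyme that starts haem synthesis, had counts in Tomato- replicate 4 alone (183 CPM), and Blvrb, a biliverdin reductase, had 49.7 CPM in Tomato+ replicate 5 and 67.0 and 0.0946 CPM in Tomato- replicates 4 and 3. Red cell markers were highest in the same Tomato- library. Their sum was 1.38 to 508 CPM in Tomato+ and 47.7 to 3593 CPM in Tomato- libraries, with 3593 CPM in replicate 4, led by the haemoglobin row Beta-s (3257 CPM), followed by Alas2 (183 CPM, also in the haem list) and with Bpgm at 82.9 CPM. Of 11 red cell markers with a row, 5 had counts, and the anion exchanger Slc4a1 was at 0 in every library. The part of red cell RNA in the haem genes was not tested.

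Endosomal and transport genes summed to 41.7 ± 63.0 CPM in Tomato+ and 1.90 ± 4.25 CPM in Tomato-, with counts for 4 of 15 genes. Slc48a1, a haem transporter, had 37.4 and 151 CPM in Tomato+ replicates 1 and 4 and 0 in all Tomato- libraries, and Slc25a37 (mitoferrin) had 20.05 CPM in Tomato+ replicate 5 alone. Transferrin itself (Trf) had 9.51 CPM in Tomato- replicate 2 alone. Regulators and other chaperones summed to 13.2 ± 17.6 CPM in Tomato+ and 7.36 ± 10.5 CPM in Tomato-, with counts for 7 of 15 genes. Pcbp2, a relative of Pcbp1, had 17.7 and 35.6 CPM in Tomato+ replicates 2 and 5 and 0.0944 CPM in Tomato- replicate 4. Bach1, a haem-sensing repressor of ferritin genes, stayed at 6.28 CPM or lower, and Nfe2l2 (NRF2) had 22.1 CPM in Tomato- replicate 4 alone. No listed gene from these lists or the haem list was tested.

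The platelet label held against markers: 13 of 14 platelet genes had a count in every library, and the list summed to 64250 ± 6702 CPM in Tomato+ and 67385 ± 4449 CPM in Tomato- (SD, n = 5 each). Most abundant of the list were Ppbp (19122 ± 2631 CPM in Tomato+, 17267 ± 4049 in Tomato-) and Pf4 (10850.5 ± 1105 and 11690 ± 2587). Ferritin is also abundant in macrophages, so their markers are given beside it. Of 11 monocyte and macrophage markers with a row, 3 had counts. Lyz2 averaged 7672 ± 1117 CPM in Tomato+ libraries and 7857 ± 1189 CPM in Tomato- libraries, while Mrc1 had at most 0.375 CPM, Ly6c2 had counts in 1 library, and Cd68, Csf1r and Cd14 were at 0 in every library. A marker at 0 does not bound its level in the cells, as the counts of Selp show. The part of macrophage RNA in the ferritin counts was not tested. Neutrophil markers summed to 240 CPM in Tomato+ replicate 3, from S100a9, and to 0 in the other libraries, B cell markers were at 0, and the T and NK cell list had Nkg7 alone, at 20.7 CPM in Tomato- replicate 4. Endothelial markers, led by Pecam1, which platelets share, and Tie1, summed to 815 ± 458 CPM in Tomato+ and 781 ± 642 CPM in Tomato-. In such bulk samples, fewer platelets with a transcript and less RNA per platelet cannot be told apart.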

How the data were processed

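For the 10 libraries the authors deposited 1 table of counts of reads per gene symbol, not normalized. Trimmomatic, FastQC, STAR, featureCounts and the build mm10 are named in the submitters' processing notes; their annotation, strand setting and treatment of multi-mapping reads: not given in the sources used here. Mouse ferritin genes have near-identical processed copies. Of 11 listed copies, 9 are in GENCODE M21 and 0 had a row in the table, so ferritin counts are uncertain where reads fit several places.

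CPM were computed from the sum of all rows (5411417 to 16179973). The test across genes was edgeR's (version 4.0.16, R 4.3.3) robust quasi-likelihood fit (TMM factors, filter with minimum count 10 and minimum total 15, group alone, Benjamini-Hochberg threshold 0.05 over 1016 genes). Log2 fold changes are Tomato+ over Tomato-, and each SE is the fold change over the root of F. Alternatives used DESeq2 1.42.0, limma 3.58.1, other scalings and filters, a replicate block and left-out libraries; the test was tried on simulated counts. Coordinates and lengths come from GENCODE M21, which matched 93.0% of symbols. Every pair of libraries differed by more than sampling noise (chi-square per degree of freedom at least 887).

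Named genes are all members, and from each list the 3 most abundant and the 2 with the smallest p. To these come the 2 most abundant of each marker list and the 3 nearest profiles. Ppia, Selp, Ly6c2 and the markers given at 0 were chosen after their values were seen. The members and lists were chosen with earlier results of these data known.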

Additional observations from a re-analysis of the deposited data

Results flagged for a closer look

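In 9 of 26 groups of 5 libraries, 1 library stood apart from the others by Dixon's criterion, which chance meets in about 1 group of 20; genes counted in few libraries meet it readily. In Tomato- these were Fth1 in replicate 2 (37583 CPM), Ncoa4 in replicate 5 (117 CPM), Pcbp1 in replicate 3 (57.9 CPM), Hscb in replicate 3 (106 CPM) and Iscu in replicate 2 (341 CPM). Among sums over lists, endosomal and transport genes stood out in Tomato+ replicate 4 (151 CPM) and Tomato- replicate 2 (9.51 CPM). Haem genes (286 CPM) and red cell markers (3593 CPM) both stood out in Tomato- replicate 4.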

How the results depend on the processing

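The count of genes called was 0 in edgeR and in 16 of 19 alternatives; it was 1 with DESeq2 (Tug1), 1 with limma voom (Ctla2a) and 2 with limma voom and the replicate block (Rn45s and Fth1). That last setting was added after seeing the data. In it, limma voom gave Fth1 a log2 fold change of 0.28 (SE 0.038, adjusted p = 0.0330), below the median of 0.37 for all tested genes. The 5 log2 differences between same-numbered libraries, with TMM factors, had a mean of 0.23 and an SE of 0.080. They ran from 0.0008 to 0.47, with Tomato+ higher in all 5. In CPM, without these factors, Tomato+ was lower in replicates 2, 4 and 5. With edgeR and the replicate block the count was 0 and Fth1 had 0.23 (unadjusted p = 0.0523, adjusted p = 0.997). Deviations of same-numbered libraries correlated at -0.11 to 0.19 over 264 genes, over 0.1 in 1 of 5 pairs. Of the 5 Tomato+ libraries, 2 correlated best with their own number. The ferritin ratio, however, ran in the same replicate order in both fractions. No label says what a shared number means, and whether same-numbered libraries share an origin was not tested. The sign of Fth1 turned with total-count scaling (-0.022) and limma voom (-0.012), and that of Hscb without Tomato+ replicate 3 (-0.38). Leaving out 1 library at a time gave 0.15 to 0.28 for Fth1, 0.22 to 0.44 for Ftl1, 0.38 to 4.05 for Ncoa4, -0.38 to 3.12 for Hscb, 1.18 to 3.01 for Isca1 and -3.55 to -0.89 for Iscu, and -0.23 to 0.09 for the difference in log2 ferritin ratio. In limma voom Isca1, Hscb and Ncoa4 had 5.04, 3.29 and 2.25 (SE 3.16, 3.205 and 3.40), beside a median of 0.95 for all tested genes. With edgeR and the replicate block these 3 genes had 9.62, 3.45 and 4.16 (SE 8.62, 3.93 and 4.84), beside a median of 0.56. None passed, and each had 0 counts in some libraries of both fractions. The cause of these changes was not tested.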
